A study of Drosophila melanogaster with 12 samples.

Results

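X chromosome euchromatin was taken as the stretch of the Drosophila X from 345001 to 22030000 (dm3 build), and its members are the predicted nucleosomes that start there. It held 183967 of the 1032783 nucleosomes of the 2 maps, 92910 of 522119 in GNP cells and 91057 of 510664 in glia. The same nucleosomes were counted on 3 autosomal arms for comparison, from 200001 to 22000000 on 2L, from 200001 to 22900000 on 3L and from 380001 to 27700000 on 3R. The study asked how histone marks and nucleosome positions differ between neural progenitors and the glia that arise from them in the embryo. Of its 12 samples, the 2 MNase-seq samples were used, 1 per cell type, and the 10 ChIP-seq samples were not analysed here.

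GNP (Gcm-expressed neural progenitor, early glial cells in the labels) nuclei came from embryos 5 to 7 h after egg laying. Their strain carried gcm-Gal4 and UAS-mCDGFP over the cyo balancer, together with UAS-3xFLAG-blrp-mCherry-RanGap. Glia nuclei (late glial cells in the labels) came from embryos 12 to 14 h after egg laying, whose strain carried repo-Gal4 and UAS-3xFLAG-blrp-mCherry-RanGap over the balancer Tm3B. Both lines thus make a FLAG-tagged RanGap protein of the nuclear envelope, by which nuclei were pulled out (INTACT), and embryos were fixed with formaldehyde. The gcm gene, which drives the first tag, is also used by precursors of blood cells. Age, driver and cell type differ together between the maps and cannot be told apart. Nucleosome positions carry no expression, so the cell types could not be checked against marker genes. The sources used here do not say that embryos were sexed, so a collection of both sexes, with fewer copies of X than of autosomes in males, and a chromatin structure of X itself cannot be told apart.

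A nucleosome is DNA wound around a core of histones, its midpoint is the dyad, and the DNA to the next one is the linker. Where a nucleosome is held in place, for example beside a promoter, its neighbours line up in an array with a steady repeat, and remodelling enzymes slide, evict or space them. In male flies the MSL complex, with its roX RNAs, coats X, acetylates histone H4 and raises transcription from the single copy, which makes X a chromosome with its own chromatin machinery.

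Micrococcal nuclease (MNase) digests linker DNA and leaves the nucleosomal fragments that were sequenced. Each map is a list of start and end positions, 146 bp apart, with no read count, so the depth behind a position is unknown. Neighbouring starts were never closer than 147 bp. With 1 library for each cell type, no difference given here has a replicate check or a p-value. Brackets give 95% intervals, exact Poisson for numbers and Wilson for shares. They cover counting error only, because calls next to each other are not independent.

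The first comparison asked how densely X was covered. In both maps X held fewer nucleosomes per Mb than each of the 3 autosomal arms. GNP had 4285 nucleosomes per Mb on X (4257 to 4312), against 4353 on 2L, 4402 on 3L and 4464 on 3R. Glia had 4199 per Mb on X (4172 to 4226), against 4263, 4299 and 4358. The interval of X lay below that of every arm in both maps. It overlapped that of 2L in both when the last 0.685 Mb of X was left out while the arms were kept whole. X minus the 3 arms pooled was -126 nucleosomes per Mb in GNP, or -2.86% of the autosomal value, and -111 in glia, or -2.58%.

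Most of that difference lay in stretches without any call. A call-free stretch is a distance of more than 500 bp between neighbouring dyads. X held 485 of them in GNP, or 22.4 per Mb, where 2L had 15.8, 3L 14.6 and 3R 12.2. In glia it held 487, or 22.5 per Mb, where the arms had 13.7, 13.9 and 10.8. They took 6.51% of X in GNP and 6.42% in glia, against 3.45% to 5.32% and 3.37% to 5.20% of the arms. With this sequence left out, X had 4583 nucleosomes per Mb in GNP against 4608 on the pooled arms, a difference of -24.8 or -0.538%. In glia it had 4487 against 4499, a difference of -11.7 or -0.260%. Outside the call-free stretches X thus lay closer to the arms, though below the pooled value in both maps. Reads were kept only when they mapped to 1 place, so a stretch free of nucleosomes and a stretch of repeated sequence cannot be told apart in these lists.

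The same sequence was call-free in both cell types. Of the 1.41 Mb free on X in GNP and the 1.39 Mb free in glia, 1.34 Mb was shared, which is 94.8% and 96.0% of each. The 3 arms shared 94.7% to 95.1% of the GNP and 95.9% to 97.3% of the glia sequence. The longest stretch of X in GNP was chrX:21684297-21760088, 75792 bp, of which 75712 bp was also free in glia. The next were chrX:19801618-19829454 with 27837 bp, 27456 of them free in glia, and chrX:3491622-3513770 with 22149 bp, 22008 of them free in glia. These blocks were uncalled over nearly the same bases in both libraries.

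Short stretches were the most frequent kind on X and the kind in which the arms differed between the maps. From 355 to 1000 bp without a nucleosome, X had 10.6 stretches per Mb in GNP and 10.3 in glia, 230 and 223 in number. On 2L the number was 169 in GNP and 116 in glia, on 3L 158 and 146, and on 3R 138 and 96. X thus kept close to the same number of short stretches in the later cells while 2L and 3R had fewer. X also had more per Mb than each arm in the other length classes, in both maps. From 1001 to 2000 bp it had 4.10 per Mb in GNP and 4.43 in glia, with 1.88 to 2.20 on the arms in GNP and 2.07 to 2.16 in glia. Over 10000 bp it had 16 stretches in GNP and 14 in glia, or 0.738 and 0.646 per Mb, and 2L, the highest arm, had 0.505 and 0.596. Without the last 0.685 Mb of X the glia value was 0.524 per Mb, below 2L.

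**Figure D1:**
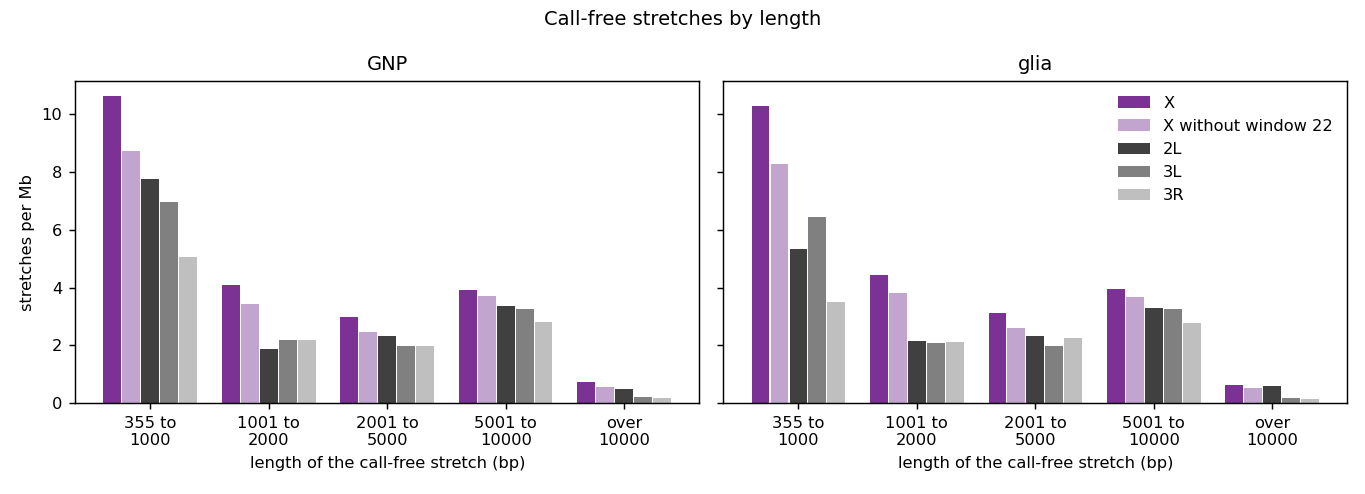
Call-free stretches per Mb (y axis) by the length without a nucleosome in bp (x axis) in GNP and glia, on X, on X without its last 0.685 Mb, and on 2L, 3L and 3R. X has the tallest bar in each of the 5 length classes in both maps, from 10.6 per Mb for the shortest to 0.738 for the longest in GNP, and the bar without the last 0.685 Mb stands lower.

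A large part of these stretches lay at one end. The last 0.685 Mb of X, from 21345001, held 88 call-free stretches in GNP and 90 in glia, and they took 41.1% and 40.4% of it. It had 1789 nucleosomes in GNP and 1817 in glia, or 2612 and 2653 per Mb. Without it, X had 397 stretches in each map, or 18.9 per Mb, still more than each arm, and they took 5.38% of it in GNP and 5.31% in glia, against 5.32% and 5.20% of 2L. The density of X without it was 4339 per Mb in GNP (4311 to 4367) and 4250 in glia (4222 to 4278), which overlapped the intervals of 2L, 4325 to 4380 and 4235 to 4290, and the differences from the pooled arms were -71.4 and -60.8 in place of -126 and -111. This split was chosen after the data were seen, and it trims X but not the arms. With 1 Mb trimmed from each end of X and of each arm, the differences were -85.9 and -72.6.

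The second comparison asked how far apart neighbours lie. On X neighbours were most often 173 bp apart in GNP and 175 bp apart in glia, and the most frequent distance of the arms was 173 to 175 bp and 175 to 177 bp. What differed was the share of neighbours at such regular distances, and more so in GNP than in glia. Distances of 160 to 200 bp made up 39.5% of all distances on X in GNP (39.1 to 39.8), against 40.7% on 2L, 40.9% on 3L and 41.8% on 3R. In glia the share was 34.5% on X (34.2 to 34.8), against 35.2%, 34.9% and 35.7%. X lay below every arm in both maps, but in glia its interval overlapped that of 3L. X minus the pooled arms was -1.71 percentage points in GNP and -0.809 in glia.

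Distances on both sides of the regular range took its place. In GNP the share from 147 to 159 bp was 9.54% on X and 9.32% on the pooled arms, the share from 201 to 295 bp 38.5% and 37.6%, and the share from 296 to 500 bp 12.0% and 11.6%. The largest deficit of X in the smoothed distribution was at 170 bp, close to its peak. The median distance was 202 bp on X in GNP, with quartiles of 175 and 253 bp, and 199 to 201 bp on the arms. In glia it was 210 bp on X, with quartiles of 179 and 260 bp, and 209 or 210 bp on the arms. With call-free stretches left out the median of X in GNP was 201 bp, 1 bp above the pooled arms instead of 2 bp. When autosomal windows of 10 kb were weighted to hold the nucleosome numbers seen on X, the difference in the regular share was -0.969 percentage points in GNP and -0.387 in glia. The difference between X and the arms was thus smaller where nucleosome numbers were matched. The number of calls in a window and the distances between them depend on each other, so this matching cannot separate the 2.

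**Figure D2:**
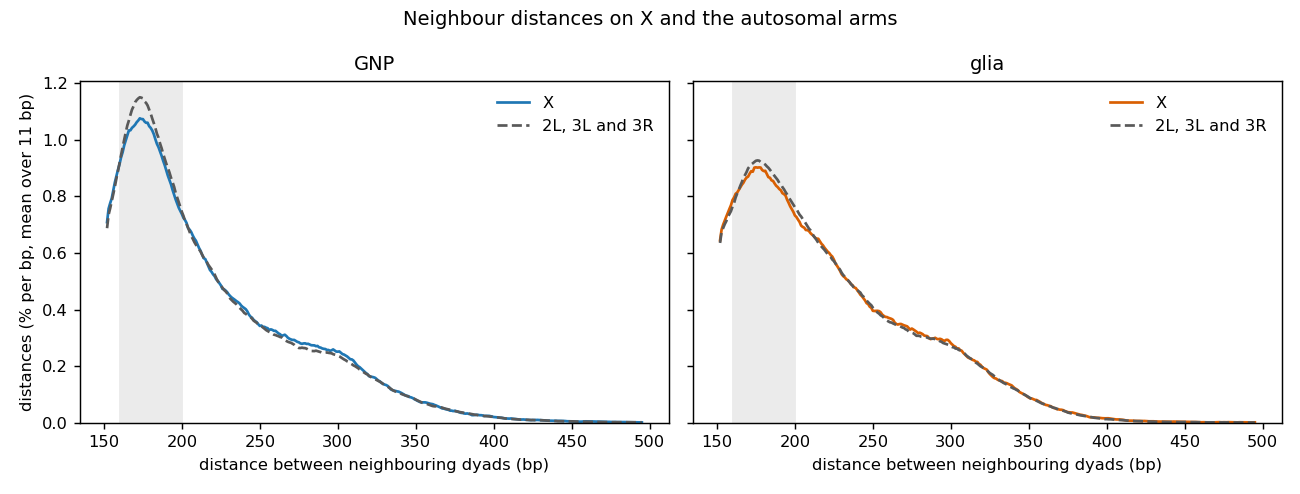
Share of neighbour distances at each distance (y axis, percent per bp, mean over 11 bp) against the distance between neighbouring dyads in bp (x axis), on X (solid) and on 2L, 3L and 3R pooled (dashed), with 160 to 200 bp shaded. The X curve lies below the autosomal one across the shaded range in GNP, where the shares are 39.5% and 41.2%, and closer to it in glia, where they are 34.5% and 35.3%.

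Arrays were read from runs of regular distances and from the repeat of dyad pairs. Runs of at least 5 regular distances, that is of 6 or more nucleosomes, numbered 651 on X in GNP, or 30.0 per Mb, against 34.0 on 2L, 35.9 on 3L and 40.8 on 3R. They took in 4.77% of the nucleosomes of X in GNP (4.64 to 4.91), against 5.39%, 5.61% and 6.34% of the arms. Glia had 328 such runs on X, or 15.1 per Mb, against 16.1, 15.7 and 17.3. They took in 2.38% of its nucleosomes (2.28 to 2.48), an interval that overlapped those of 2L and 3L. In both maps X had fewer long runs than each arm, and glia had fewer than GNP on X and on each arm. Runs are made of regular distances, so their number depends on the regular share and is not a separate line of evidence.

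The longest run of X in GNP was chrX:7615505-7618069, where 15 nucleosomes followed each other at a mean of 173 bp. Glia had 11 nucleosomes over the same sequence, and 2 of the 15 GNP dyads had a glia dyad within 10 bp. The next, chrX:7552379-7554660, had 13 nucleosomes at a mean of 178 bp, with 6 glia dyads within 10 bp. A further run of 13 nucleosomes, chrX:15195403-15197740, had a mean of 183 bp and 2 glia dyads within 10 bp. In glia the longest runs had 10 nucleosomes, at chrX:9919436-9921184 with a mean of 178 bp, at chrX:10925819-10927544 with 175 bp and at chrX:17373244-17374966 with 175 bp, and 3 dyads of each had a GNP dyad within 10 bp. The longest run of glia on the arms had 13 distances on 2L, 15 on 3L and 11 on 3R, and on X it had 9. The longest run of GNP had 14 distances on X, within the range of 13 on 2L, 15 on 3L and 14 on 3R.

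Few runs of one cell type overlapped a run of the other, on X as on the arms. Of the 651 GNP runs of X, 29 overlapped a glia run, or 4.45% (3.12 to 6.32), where the share over X and the 3 arms together was 5.27%. Of the 328 glia runs, 29 overlapped a GNP run, or 8.84% (6.23 to 12.4), where that share was 11.5%. Single arms had 5.28% to 5.66% and 11.5% to 13.1%, and their intervals overlapped those of X. The runs covered 3.57% of X in GNP and 1.74% in glia, against 4.09% to 4.94% and 1.80% to 1.99% of the arms. In GNP, the share of dyads with a glia dyad within 10 bp was 27.5% inside runs (26.2 to 28.8) and 27.7% outside (27.4 to 28.0), with overlapping intervals. In glia the share was 32.7% inside runs (30.8 to 34.7) and 28.1% outside (27.8 to 28.4), and the arms had the same order with 32.8% and 29.2% when pooled.

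The repeat over several nucleosomes was read from the number of dyad pairs at each distance, relative to the number for evenly placed dyads. Even placement was taken over the whole length, and the larger share of call-free sequence on X raises its ratios, which leaves the contrast of peak and trough as it is. On X in GNP the first peaks stood at 173, 376 and 559 bp. The first peak was 4.12 times the following trough on X, and 4.58, 4.51 and 4.90 times on 2L, 3L and 3R. For the second it was 1.67 on X and 1.74 to 1.83 on the arms, and for the third 1.40 on X and 1.40 to 1.45 on the arms. In glia the peaks of X stood at 175, 388 and 567 bp, and the first was 3.05 times its trough, against 3.18 to 3.25 on the arms. The second was 1.24 against 1.28 to 1.29, and the third 1.09 against 1.10 to 1.12. The repeat of X was shallower than that of each arm at all 3 peaks in both maps, by the least at the third peak. In GNP the first trough was 0.609 of even placement on X and 0.534 to 0.576 on the arms, and the first peak 2.51 on X and 2.60 to 2.62 on the arms.

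**Figure D3:**
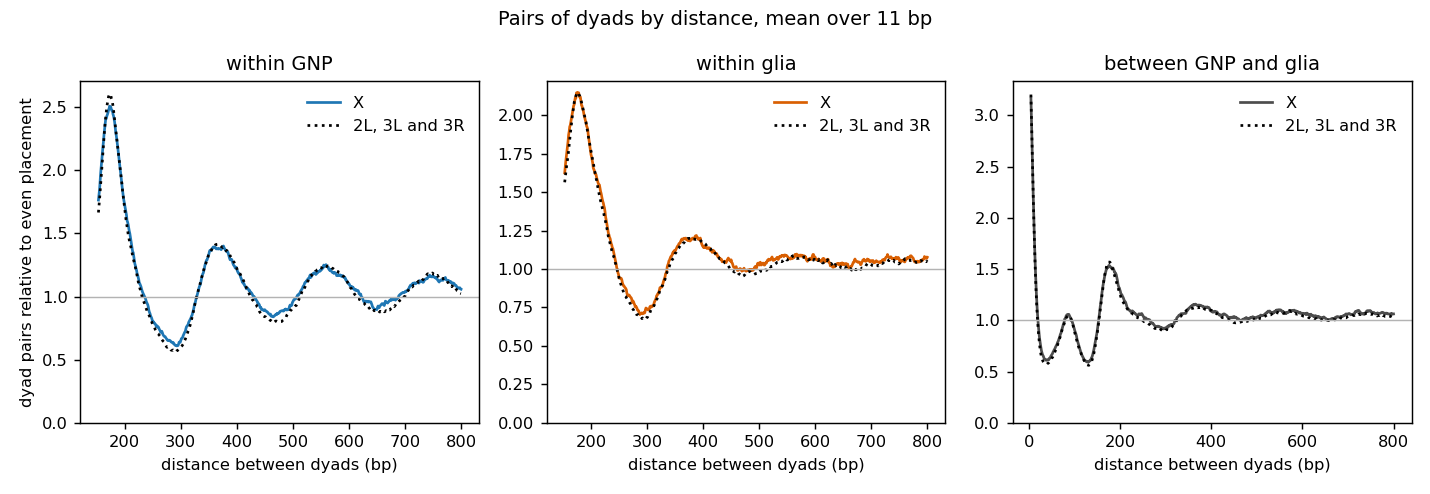
Number of dyad pairs relative to even placement (y axis, mean over 11 bp) against the distance between the dyads in bp (x axis), within the GNP map, within the glia map and between the maps, on X (solid) and on 2L, 3L and 3R pooled (dotted). In GNP the first peak of X reaches 2.51 and its trough falls to 0.609, against 2.61 and 0.561 on the pooled arms, and in glia the first peaks of 2.15 coincide.

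The third comparison concerned gaps, here a linker of 150 bp or more where the neighbours are no more than 500 bp apart, the size at which the study speaks of depletion. X had 11174 gaps in GNP, 12.1% of its neighbour pairs (11.9 to 12.3), and the arms had 11.8%, 11.9% and 11.4%. In glia X had 11746 gaps, 13.0% of its pairs (12.8 to 13.2), between the 12.4% of 3R and the 13.0% of 3L. X was above each arm in GNP, with an interval that overlapped those of 2L and 3L, and within the range of the arms in glia. X also lay within the range of the arms in GNP for gaps of 200 bp or more, 3.34% against 3.08% to 3.48%. In glia it was above each arm for these, 3.03% (2.92 to 3.15) against 2.79% to 3.00%, with an interval that overlapped those of 2L and 3L. Gaps of X had a median length of 178 bp in GNP and of 176 bp in glia.

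Most gaps of one cell type held a dyad of the other, though the share that unrelated positions would give was not computed. Of the 11174 GNP gaps of X, 7573 held a glia dyad, or 67.8% (66.9 to 68.6), where the share over X and the 3 arms together was 68.2%. Of the 11746 glia gaps, 8140 held a GNP dyad, or 69.3% (68.5 to 70.1), where that share was 69.6%. X was thus near the common share in both directions. Gaps left free by both maps over at least 100 bp numbered 2176, which is 19.5% of the GNP and 18.5% of the glia gaps of X. The arms had 18.9% to 20.4% and 17.9% to 19.1%. The longest free in both maps were chrX:14064570-14064904 with 335 bp, chrX:9151303-9151625 with 323 bp and chrX:10865696-10866018 with 323 bp. No gene is given for them, since no annotation of the dm3 build was used here.

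The fourth comparison asked how often the 2 cell types place a nucleosome alike. On X they did so less often than on each arm, by about 1 percentage point at 10 bp. A dyad of the other map within 10 bp was found for 25701 X nucleosomes, 27.7% of GNP (27.4 to 28.0) and 28.2% of glia (27.9 to 28.5). Over X and the arms together these shares were 28.4% and 29.1%. On 2L, 3L and 3R they were 28.6%, 28.7% and 28.7% in GNP, and 29.2%, 29.4% and 29.4% in glia. The interval of X did not reach that of any arm in either map, while the intervals of the 3 arms overlapped each other. Since calls of a map lie at least 147 bp apart, both shares count the same 25701 pairs over different totals. The GNP and glia shares are thus 1 observation and not 2 separate ones. X minus the pooled arms was -0.998 points in GNP and -1.10 in glia, and its sign held without each arm, without call-free stretches, without the last 0.685 Mb and at matched nucleosome numbers.

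Dyads at exactly the same position numbered 1499 on X, 1.61% of GNP (1.53 to 1.70) and 1.65% of glia (1.57 to 1.73). These too are the same pairs in both maps. Over X and the arms together the shares were 1.69% and 1.72%, and the interval of X overlapped those of the arms. The nucleosomes that X had fewer of within 10 bp appeared at 11 to 50 bp, where X had 28.6% of GNP dyads (28.3 to 28.9) and the arms 27.7% to 28.0%. At 51 to 125 bp X and the pooled arms had the same share, 39.1%. From a GNP dyad to the nearest glia dyad the median was 38 bp on X and on each arm, and from a glia dyad to the nearest GNP dyad it was 37 bp on X and 35 or 36 bp on the arms. In glia X had 29.2% at 11 to 50 bp and 38.4% at 51 to 125 bp, against 28.5% and 38.3% on the pooled arms. The lower share within 10 bp thus went mainly with more dyads at 11 to 50 bp in both maps. Whether these offsets are displaced nucleosomes or imprecise calls was not tested.

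Lost and gained nucleosomes follow the definition of the study, an overlap of 20 bp or less with the nearest nucleosome of the other map. That is a dyad distance of at least 126 bp. Shares here are of the nucleosomes of the GNP or the glia map, whereas the study gives lost and gained as parts of a common total. The percentages are therefore not comparable with those of the study. X had 4303 lost GNP nucleosomes, 4.63% (4.50 to 4.77), where X and the arms together had 4.46% and single arms 4.43%, 4.49% and 4.33%. It had 3780 gained glia nucleosomes, 4.15% (4.02 to 4.28), where the common share was 3.96% and the arms had 4.01%, 3.90% and 3.81%. X was above every arm in both, but its intervals overlapped those of 2L and 3L in each case. With nucleosomes left out that start between neighbours of the other map more than 500 bp apart, the shares were 4.50% lost and 3.95% gained on X, against 4.35% and 3.79% on the pooled arms.

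Agreement was also counted over several nucleosomes at a time, a number that depends on the share within 10 bp and is not separate from it. Blocks of at least 5 GNP neighbours that each had a glia dyad within 10 bp numbered 236 on X, or 10.9 per Mb, against 12.4, 13.1 and 13.0 on the arms. The longest block on X had 9 nucleosomes, and those of 2L, 3L and 3R had 9, 11 and 12. Counts of pairs between the maps gave 3.17 times even placement at 0 to 10 bp on X and 3.23, 3.22 and 3.17 on the arms. Even placement was again taken over the whole length, call-free stretches included. At 11 to 50 bp X had 0.852 of even placement and the arms 0.802 to 0.814. The trough between the maps was 0.592 on X and 0.547 to 0.574 on the arms. The first repeat between the maps stood at 176 bp and 1.54 times even placement on X, against 1.56 to 1.58.

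The fifth comparison was between the cell types, on X and on each arm. Glia had a wider spacing, fewer regular distances and more gaps of 150 bp or more than GNP on X, as on the arms. For regular spacing the step was smaller on X. The regular share was -4.95 percentage points in glia minus GNP on X, and -5.46, -5.97 and -6.05 points on 2L, 3L and 3R. Long runs were -14.9 per Mb on X and -17.9, -20.2 and -23.5 on the arms. The median spacing was 8 bp wider on X, as on 2L, and 10 bp on 3L and 3R. The gap share was higher by 0.879 points on X and by 0.943, 1.13 and 0.947 on the arms. Gaps of 200 bp or more went the other way, with glia minus GNP of -0.303 points on X and -0.366, -0.481 and -0.294 on the arms. Density was -85.5 per Mb on X and -89.8, -103 and -106 on the arms. Since GNP was also where X differed most from the arms in regular spacing, the glia values of X and the arms lay closer together than the GNP values.

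Few windows of 10 kb passed a threshold of 1.5-fold in number. Calls at least 147 bp apart allow no more than 69 per window, and the median window of X held 45 in GNP and 44 in glia. A window of ordinary number could hardly reach 1.5-fold more, so the rarity of such windows does not show that numbers were alike. Of 2127 windows on X with at least 20 nucleosomes in both maps together, 1 had 1.5-fold more in glia and 0 had 1.5-fold fewer, where 0.0108% and 0% of the 9239 windows on X and the 3 arms did. The median log2 ratio of glia over GNP was -0.03 on X and on each arm, with a pseudocount of 1. GNP had more nucleosomes in 1196 windows of X, glia in 594, and the number was equal in 337. The share with more in GNP was 56.2% on X, within the range of 55.9% on 2L, 56.9% on 3L and 58.9% on 3R. The window past the threshold was chrX:21585001-21595000, with 12 nucleosomes in GNP (6.20 to 20.96) and 23 in glia (14.6 to 34.5), a log2 ratio of 0.88. The next were chrX:21035001-21045000 with 14 and 19, and chrX:21395001-21405000 with 24 and 32. At the other end stood chrX:21635001-21645000 with 41 in GNP and 31 in glia, a log2 ratio of -0.39, then chrX:14865001-14875000 with 49 and 39 and chrX:3755001-3765000 with 53 and 43. The Poisson intervals of the 2 maps overlapped in each of these 6 windows, and 3 of the 6 lie in the last 0.685 Mb of X.

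The last comparison asked whether X stood apart along its length or in some places. Windows of 1 Mb were laid out from the lowest coordinate of each region, which is the telomere-proximal end of X, 21 on X and 70 on the arms. They share a chromosome and a library and are not replicates. The GNP share within 10 bp had a median of 27.4% over X windows and 28.6% over autosomal windows. Of the 21 X windows 18 lay below the autosomal median in GNP and 19 in glia, and 8 and 6 lay below the lowest autosomal window. Both maps count the same pairs here, so the glia counts are not independent of the GNP counts. For the regular share 19 lay below the autosomal median in GNP and 16 in glia, and 3 and 1 below the lowest autosomal window. For the number of nucleosomes it was 17 in GNP and 15 in glia. The lower agreement and the lower regular share were thus spread over most of X, and the lower number over somewhat fewer windows. In windows of 100 kb, 216 on X and 718 on the arms, 70.8% of the X windows were below the autosomal median for agreement in GNP and 71.3% in glia, and for the regular share 74.1% and 63.0%.

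**Figure D4:**
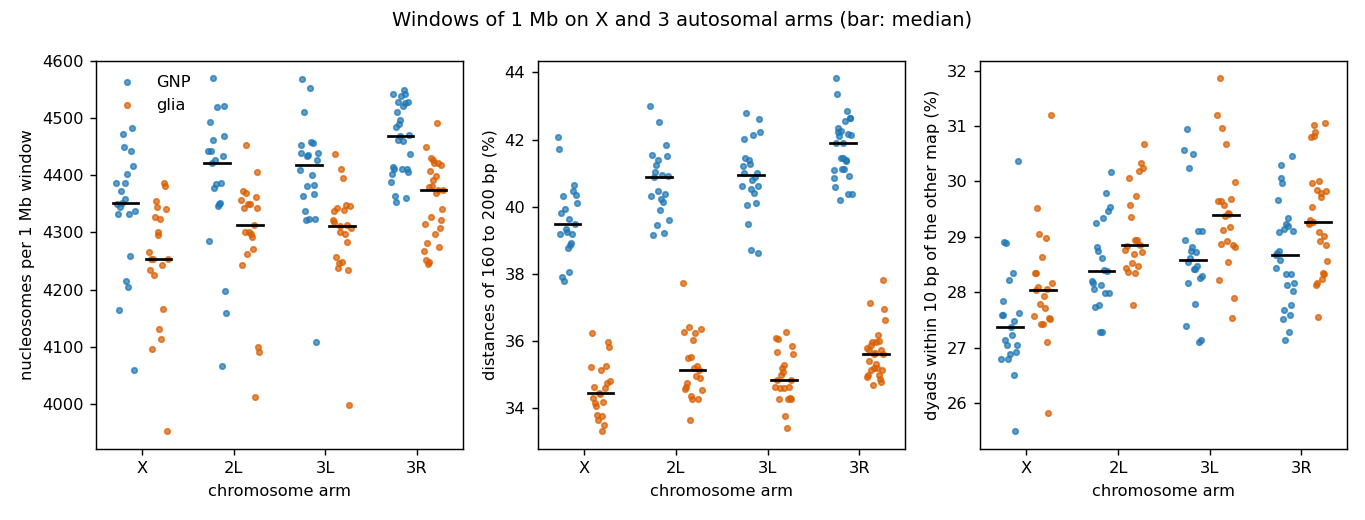
Nucleosomes per 1 Mb window, share of distances from 160 to 200 bp and share of dyads within 10 bp of the other map (y axes), by chromosome arm (x axis), with 1 point per window for GNP and glia and a bar at the median. The X medians of 4351 nucleosomes and 27.4% within 10 bp in GNP stand below those of the 3 arms, and the points overlap.

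Windows of X rich or poor in nucleosomes were the same in both cell types, while other measures were less alike. Over the 21 windows, the numbers in GNP and glia had Pearson's r of 0.97 and Spearman's rho of 0.92, and the call-free sequence in both had r of 0.999 and rho of 0.991. For the regular share r was 0.57 and rho 0.54, for the gap share 0.58 and 0.53, and for the median spacing 0.49 and 0.42. The number in GNP and the call-free sequence had r of -0.94 and rho of -0.90. In all 21 the median spacing was wider and the regular share lower in glia, and in 19 the gap share was higher in glia. The window chrX:16345001-17345000 had the lowest agreement, 25.5% of GNP and 25.8% of glia dyads within 10 bp, with only 1.95% of its sequence call-free in GNP. The window chrX:19345001-20345000 had the highest, 30.4% and 31.2%, together with the fewest nucleosomes, 4059 and 3952, and 12.8% call-free sequence in GNP. The agreement and the number in GNP had r of -0.62 and rho of -0.61 over the 21 windows, and r of -0.56 and rho of -0.18 over the 216 windows of 100 kb. The window chrX:1345001-2345000 had the lowest gap share, 9.78% in GNP and 11.2% in glia. Regular distances were most frequent in GNP in the first windows, 42.1% in chrX:345001-1345000 and 41.7% in chrX:1345001-2345000.

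The last 0.685 Mb stood apart from the rest of X in most measures. Its neighbours had a median of 216 bp between dyads in GNP and of 217 bp in glia, so the cell types were 1 bp apart where the rest of X had 8 bp between them. Its regular share was 31.8% (29.7 to 34.0) and 31.5% (29.4 to 33.7), and its gap share 17.3% and 15.7%. Its agreement within 10 bp was higher than elsewhere, 35.0% of GNP (32.9 to 37.3) and 34.5% of glia dyads (32.4 to 36.7), against 27.5% and 28.1% on the rest of X. Its lost share was 5.09% (4.16 to 6.20) against 4.62% on the rest, and its gained share 6.22% (5.20 to 7.42) against 4.11%. With nucleosomes left out that start in call-free stretches of the other map, these were 3.73% against 4.52% and 4.03% against 3.95%. Long runs of regular distances numbered 3 in GNP, or 4.38 per Mb against 30.9 on the rest of X, and 9 in glia, or 13.1 per Mb against 15.2. They took in 1.01% of its nucleosomes in GNP (0.637 to 1.58) against 4.85% on the rest, and 3.14% in glia (2.43 to 4.04) against 2.36%. Without this stretch the agreement of X was -1.14 percentage points from the pooled arms in GNP and -1.23 in glia, a larger difference than with it.

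**Figure D5:**
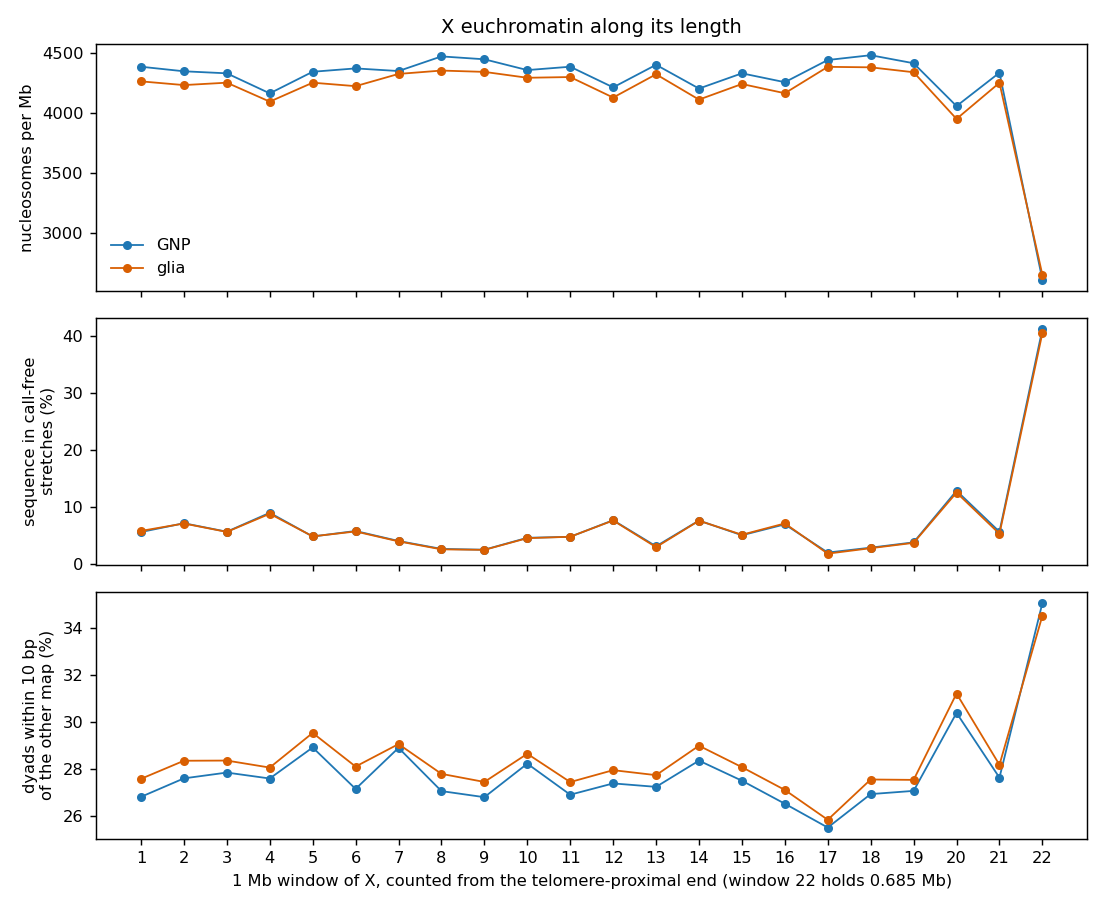
Nucleosomes per Mb, share of sequence in call-free stretches and share of dyads within 10 bp of the other map (y axes) in consecutive 1 Mb windows of X counted from the telomere-proximal end (x axis), for GNP and glia, the last window holding 0.685 Mb. Both maps follow the same course, with 25.5% agreement in window 17 for GNP, 30.4% in window 20 and 35.0% in window 22, where density drops to 2612 per Mb.

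On a finer scale, the 213 windows of 100 kb on X that held 200 or more GNP nucleosomes ranged widely in agreement around a median of 27.4%. The highest was chrX:20245001-20345000, where 154 of 456 GNP dyads had a glia dyad within 10 bp, or 33.8% (29.6 to 38.2). Next came chrX:19445001-19545000 with 159 of 473, or 33.6%, and no call-free sequence in GNP, and chrX:10745001-10845000 with 149 of 446, or 33.4%. The lowest was chrX:15945001-16045000, where 82 of 416 had one, or 19.7% (16.2 to 23.8). Its neighbour chrX:15845001-15945000 had 60 of 283, or 21.2%, with 44302 bp call-free in GNP, and chrX:2145001-2245000 had 91 of 415, or 21.9%. The highest and lowest windows did not overlap in their intervals, but they were picked from 213 for their rank. The regular share in GNP was 36.1%, 33.9% and 35.7% in the 3 low windows and 45.0%, 41.2% and 40.8% in the 3 high ones, below and above the 39.5% of X as a whole. These 6 windows do not stand for the rest, since over the 216 windows of 100 kb agreement and regular share in GNP had r of -0.33 and rho of -0.05, and over the 21 windows of 1 Mb r of -0.28 and rho of -0.32.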

How the data were processed

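MNase-seq maps of GNP cells and glia, 1 library each, were used. The authors placed their single-end reads on dm3 with Bowtie (version 0.12.7 in the submitters' processing notes), used reads that mapped to 1 place and called positions with GeneTrack, whose settings are not given in the sources used here. The deposited lists hold the chromosome, start and end of each nucleosome in bp and no other value. Depth is unknown, and it is not settled whether positions count from 0 or from 1, so coordinates carry an uncertainty of 1 bp.

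The dyad was taken 73 bp after the start. Profiles were smoothed over 11 bp. Python 3.11.15, numpy 2.4.6, pandas 2.3.3, scipy 1.17.1 and matplotlib 3.10.9 were used, and the counting was tested on simulated data. No test between groups was possible with 1 library per cell type. The limits of X, the comparison arms and the measures were chosen with earlier results of these data known. Regions were named by rule: per map the 3 longest regular runs, the 3 highest and 3 lowest 10 kb windows by ratio, the 3 highest and 3 lowest 100 kb windows by agreement, and the 3 longest gaps free in both maps. The 3 longest call-free stretches and single 1 Mb windows were named after their values were seen. A list of X genes was not looked up, since no dm3 annotation was given. Alternatives changed limits of X, distance ranges, gap size, overlap, smoothing, local density and the set of arms, and the split at 21345001 was added after the data were seen.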

Additional observations from a re-analysis of the deposited data

How the results depend on the processing

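Over 17 results and 119 alternatives, X minus the pooled arms reversed in 0, moved by more than the counting error in 22 and stayed within it in 97. The GNP and glia results for dyads at the same position and within 10 bp use the same pairs, so the 17 are not all separate. Some alternatives change the measure itself, such as the gap size, the overlap or peak minus trough. For these only the sign can be compared, not the size of the shift. A reversal was counted only where the main interval left out 0. The log2 ratio of 10 kb windows did not (-0.000296 to 0.00798), and its alternatives kept their sign. The values that moved follow, with those of GNP first. Density in nucleosomes per Mb was -24.8 and -11.7 with the length of call-free stretches left out, -85.9 and -72.6 with 1 Mb trimmed from each end, and -71.4 and -60.8 without the last stretch of X, an alternative added after the data were seen. It was -93.1 without 3R in GNP and -80.0 by the median of 100 kb windows in glia. The difference in median spacing was 1 bp without distances over 500 bp in GNP, and 1 and 0 bp with autosomal windows weighted to the numbers of X. The difference in the regular share was -1.24 and -0.446 points for 150 to 190 bp, -0.969 and -0.387 with the weighting, and -1.33 without 3R in GNP. The gap share differed by 0.0633 points at 200 bp or more in GNP, and the repeat contrast by -0.145 as peak minus trough in GNP. The share at the same position differed by -0.705 and -0.770 points within 5 bp and by -0.998 and -1.10 within 10 bp, which widens the definition. Other causes of these shifts were not tested. Limits are the unknown depth, 1 library per cell type, calls from uniquely mapped reads only and the minimum distance between calls. No paired analysis was possible because each cell type has 1 library and no test was run.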

Other observations

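On X 538 of 92910 GNP nucleosomes started between glia neighbours more than 500 bp apart, and 681 of 91057 glia nucleosomes between such GNP neighbours. The pooled arms had 995 of 316762 and 1443 of 309568. Such starts can fall only in call-free stretches of the other map, of which X had more per Mb than each arm. On 2L the numbers were 321 and 496, on 3L 366 and 473, and on 3R 308 and 474, so the glia number was the higher on X and on each of these arms.

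Of the 485 call-free stretches of X in GNP, 404 overlapped one of glia, or 83.3%, and of the 487 in glia 426 overlapped one of GNP, or 87.5%. On the arms the GNP shares were 75.7% to 79.0% and the glia shares 83.5% to 92.6%. X thus had the highest share of GNP stretches met again in glia and a middle share in the other direction. No intervals were computed for these shares, so the ranking does not set X apart from the arms. The last 0.685 Mb of X held 88 of its GNP and 90 of its glia stretches, and the shares were not computed without it. By length, stretches of up to 2000 bp made up 0.258 Mb of X in GNP and 0.271 Mb in glia.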
